A study of Homo sapiens with 21 samples.

Results

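The desmosome components followed in these data were 10 genes: DSG2, DSG3, DSC2, DSC3, JUP, PKP1, PKP2, PKP3, DSP and PERP. They were taken by gene symbol, whatever their values, from 20970 genes listed in at least 1 of 4 tables of normalised read counts. The FADU tables list all 10. The BFTC909 table lists 5 of them (DSG2, PKP1, PKP3, DSP and PERP), and the other 5 were not analysed in that line.

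A desmosome is a spot-like junction that ties the keratin filaments of neighbouring epithelial cells together. Desmosomal cadherins, the desmogleins (DSG) and desmocollins (DSC), meet in the gap between the cells. Inside the cell their tails bind plakoglobin (JUP) and plakophilins (PKP), and these bind desmoplakin (DSP), which grips the keratins. PERP, a membrane protein and a target of p53 and p63, is needed for stable desmosomes in stratified epithelia. Loss of these junctions is a known part of epithelial-mesenchymal transition (EMT), the change of shape and adhesion that lets carcinoma cells move.

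The study asked how METTL4, a putative N6-adenine methyltransferase, and the lncRNA RP11-390F4.3 take part in the response of carcinoma cells to low oxygen. It used FADU, a human hypopharyngeal squamous carcinoma line, and BFTC909, a human line from a urothelial cancer of the renal pelvis. Ribosomal RNA-depleted total RNA of 21 libraries in 11 groups was sequenced. Replicates are separate libraries of a group. The labels do not say that they came from separate cultures, so p-values measure the spread between libraries, which may be technical.

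In each line, cells with the Scr-si control were kept at 18% O2 (normoxia) or 1% O2 (hypoxia) for 18 h, and METTL4-si cells at 1% O2 for 18 h (2 libraries per group). FADU cells stably transfected with a control vector, with METTL4 (METTL4-OE) or with RP11-390F4.3 (RP11-390F4.3-OE) were kept in normoxia (2 libraries per group). The last experiment, in hypoxia, held 1 library of a CRISPR control of FADU and 1 library each of 2 METTL4-DPPW-mut clones. These clones were grown from single edited cells and carry a change in the catalytic DPPW motif of METTL4, so each is 1 clone. The RP11-390F4.3-OE columns were matched to their samples by elimination, as the only columns of that table without a name of another group.

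METTL4 was at 26.6 and 25.3 in the Scr-si and 24.2 and 27.1 in the METTL4-si hypoxia libraries of FADU (log2 fold change −0.02 ± 0.088 (SE), adjusted p = 0.9). In BFTC909 it was at 19.0 and 15.6 against 14.4 and 12.2 (−0.36 ± 0.13, adjusted p = 0.0717). Neither difference passed the test, and the groups are called below the libraries labelled METTL4-si. CA9, a hypoxia target that encodes carbonic anhydrase IX, did separate them. It was at 2.33 and 2.55 in FADU normoxia, 31.0 and 37.8 in hypoxia, and fell back to 1.87 and 2.22 in METTL4-si-labelled libraries. In METTL4-OE, METTL4 stood at 158 and 139 against 35.4 and 32.7 in the control vector. RP11-390F4.3 itself was at 3.30 and 4.24 in the libraries labelled RP11-390F4.3-OE and 3.72 and 3.82 in the control vector, so that label is used in the same way.

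Libraries held 17781791 to 25410656 reads on genes, and every member listed had at least 105 reads in every library of the knockdown and overexpression tables. All 8 squamous markers were above 1 in every FADU library. In BFTC909 libraries, 1 or 2 of 9 urothelial markers reached 1, while 5 or 6 of 7 fibroblast markers did, with a summed level of 1252 to 4911. In total, 3 libraries stood apart from their replicates by markers of other cells. The summed level of 8 luminal breast markers, which include KRT8 and ESR1, was 836 in BFTC909 METTL4-si replicate 2 and 15.7 in replicate 1. It was 2257 against 705 in FADU METTL4-si replicates 1 and 2, and 2004 against 1672 in FADU normoxia replicates 1 and 2, where ESR1 was at 16.7 and 2.99. Urothelial markers were raised in the same libraries, at 149 against 23.2 in BFTC909 METTL4-si replicates 2 and 1. They were at 314 against 35.9 in FADU METTL4-si replicates 1 and 2 and 102 against 46.3 in FADU normoxia. Fibroblast markers were at 116 against 5.87 in FADU METTL4-si and 25.6 against 4.74 in FADU normoxia. Results that rest on these 3 libraries are given below with and without them. Without them, the spread in FADU comes from the Scr-si hypoxia pair alone and that in BFTC909 from the pairs of the Scr-si groups, and the lone libraries are assumed to vary alike, so those p-values are small for few libraries.

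The desmosomal cadherin genes lie side by side. On chromosome 18 (GRCh37) DSC3 spans bases 28569331 to 28622781 and DSC2 bases 28638806 to 28682485, both on the minus strand. DSG3 (29027704 to 29058665) and DSG2 (29078140 to 29128971) follow on the plus strand. DSG1 and DSG4, the desmogleins of the most differentiated layers, lie between DSC2 and DSG3, and DSG1 was at no more than 0.728 in any FADU knockdown or overexpression library. JUP is on chromosome 17, PKP1 on chromosome 1, PKP2 on chromosome 12, PKP3 on chromosome 11, and DSP and PERP on chromosome 6.

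Promoter sequence was matched for 8 of the 10 genes, in 10 windows of 250 bases before a transcription start (RefSeq, GRCh38.p14). The windows were searched on both strands for the core of the hypoxia response element, bound by HIF-1, written ACGTG or GCGTG, and for CAGGTG, the form of the E-box (CANNTG) that ZEB and SNAI repressors bind. Of 35116 promoter windows of the same length, 18.5% hold ACGTG, 32.2% hold GCGTG, 17.5% hold CAGGTG and 61.8% hold any CANNTG, which counts CAGGTG as well. The sequences shown are those of the 4 genes that were lower together in METTL4-OE (DSG3, DSC2, DSC3 and PKP1) and of DSP, which had the largest fitted log2 fold change in BFTC909. Capitals mark a match to either HIF core or to CAGGTG on either strand.

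PKP1 (chr1:201283256-201283505, plus strand): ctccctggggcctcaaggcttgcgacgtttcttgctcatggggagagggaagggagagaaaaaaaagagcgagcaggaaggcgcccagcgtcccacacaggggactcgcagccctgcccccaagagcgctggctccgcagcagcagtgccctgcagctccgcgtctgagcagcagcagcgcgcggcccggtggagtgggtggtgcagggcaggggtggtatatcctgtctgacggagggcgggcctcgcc

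DSG3 (chr18:31447491-31447740, plus strand): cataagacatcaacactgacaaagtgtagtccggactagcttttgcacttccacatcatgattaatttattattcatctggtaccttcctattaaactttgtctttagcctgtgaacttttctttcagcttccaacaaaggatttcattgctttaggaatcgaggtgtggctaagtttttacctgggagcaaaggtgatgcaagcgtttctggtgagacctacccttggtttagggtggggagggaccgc

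DSC2, upstream start (chr18:31102422-31102671, minus strand): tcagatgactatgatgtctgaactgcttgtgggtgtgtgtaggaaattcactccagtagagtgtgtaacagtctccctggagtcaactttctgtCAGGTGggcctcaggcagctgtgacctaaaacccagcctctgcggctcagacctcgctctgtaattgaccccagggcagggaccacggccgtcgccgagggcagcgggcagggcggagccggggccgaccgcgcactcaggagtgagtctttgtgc

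DSC2, downstream start (chr18:31101261-31101510, minus strand): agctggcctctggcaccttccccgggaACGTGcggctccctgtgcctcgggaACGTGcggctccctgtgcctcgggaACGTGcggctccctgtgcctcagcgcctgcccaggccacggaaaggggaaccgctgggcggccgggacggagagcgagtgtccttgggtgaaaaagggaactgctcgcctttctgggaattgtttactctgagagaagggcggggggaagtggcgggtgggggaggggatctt

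DSC3 (chr18:31042743-31042992, minus strand): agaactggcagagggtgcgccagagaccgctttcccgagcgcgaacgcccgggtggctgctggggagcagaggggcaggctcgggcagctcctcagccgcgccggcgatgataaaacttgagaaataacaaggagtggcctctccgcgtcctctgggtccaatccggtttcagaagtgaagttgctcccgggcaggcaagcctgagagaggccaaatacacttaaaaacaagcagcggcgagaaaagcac

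DSP (chr6:7541421-7541670, plus strand): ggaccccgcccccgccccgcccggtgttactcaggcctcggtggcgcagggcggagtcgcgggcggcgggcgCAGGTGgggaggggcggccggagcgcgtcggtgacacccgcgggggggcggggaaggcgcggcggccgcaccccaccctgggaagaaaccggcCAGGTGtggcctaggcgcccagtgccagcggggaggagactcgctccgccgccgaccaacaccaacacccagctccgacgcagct

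The windows of PKP1 and DSC3 held none of these letters, and that of DSG3 held 1 CANNTG and no CAGGTG. The window before the upstream DSC2 start held CAGGTG at 1 place, 156 bases before the start. The window before the downstream DSC2 start held ACGTG 3 times, at 223, 198 and 173 bases before the start. The copies are 25 bases apart in a tandem repeat, in which the second copy matches the first at 25 of 25 bases and the third at 22. DSP and DSG2 each held CAGGTG at 2 places, DSP at 178 and 85 bases before the start, and the window before the downstream JUP start also held it at 2 places. JUP held GCGTG at 1 place in each of its 2 windows. PERP held none of the motifs. No binding was measured in these libraries, so these letters are a description of the windows only.

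Per kilobase of exon, the level in FADU cells in normoxia spanned a wide range among the members, from the membrane protein PERP at the top to PKP1 and DSC2 at the bottom (mean ± SD of 2 libraries, normalised reads per kilobase of the union of exons). PERP stood at 145 ± 8.32 and DSP at 118 ± 3.70. DSG2, the desmoglein found in all tissues with desmosomes, was at 60.8 ± 2.03 and JUP at 54.5 ± 5.50, and these neighbours did not differ beyond their spread. DSC3 followed at 34.3 ± 1.82, PKP3 at 24.4 ± 1.41, DSG3 at 18.5 ± 1.13 and PKP2 at 14.4 ± 0.0685. DSC2 (6.67 ± 0.200) and PKP1 (6.46 ± 0.282) did not differ beyond their spread. The order depends on the length used. Per kilobase of the longest transcript, DSP (166) came before PERP (145), and DSG2 (101) stood further above JUP (76.8). By that length PKP2 (33.9) came before PKP3 (32.9) and DSG3 (18.5), and PKP1 (7.36) before DSC2 (6.73). In replicate 2 alone, without the normoxia library that stands apart, the order by the union of exons was the same. It ran from 151 for PERP and 121 for DSP to 6.81 for DSC2 and 6.26 for PKP1.

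BFTC909 cells, whose table was normalised separately, held a different mixture, and no test was made across the tables. The level per kilobase was 21.1 ± 0.137 for PERP, 14.6 ± 0.358 for DSG2, 5.42 ± 0.309 for PKP1, 2.69 ± 0.0264 for DSP and 1.21 ± 0.0633 for PKP3. DSP, next to PERP in FADU, thus came after PERP, DSG2 and PKP1 in BFTC909, and PKP1, the lowest of these 5 in FADU, came before DSP and PKP3. ZEB1, a repressor of epithelial genes, was at 121 and 118 normalised reads in these BFTC909 libraries and at 1.37 and 1.74 in those of FADU.

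**Figure D1:**
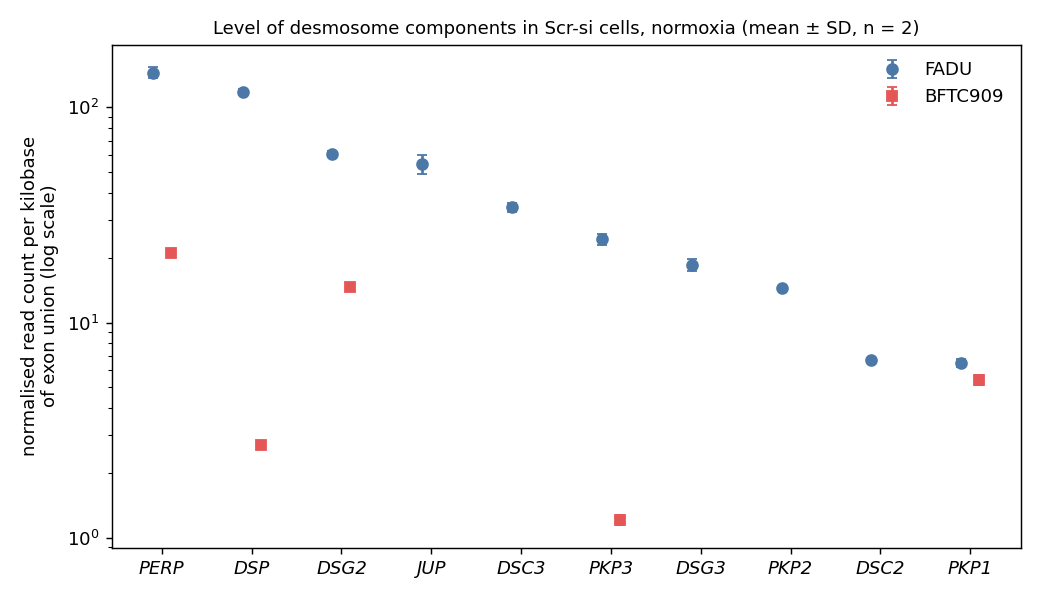
Level of each desmosome component in Scr-si cells in normoxia, as normalised reads per kilobase of exon union on a log axis (mean ± SD of 2 libraries; bars smaller than the symbol are hidden). FADU runs from 145 (PERP) to 6.46 (PKP1), and the 5 components listed for BFTC909 lie below their FADU level, with PKP1 the nearest (5.42 against 6.46).

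In FADU cells 3 of the 10 components were higher in hypoxia, the cadherins DSG3 and DSC2 and the plakophilin PKP1, and none was lower (a gene was called at 1.3-fold or more with an adjusted p under 0.05). Over all 16324 genes tested, 9.73% were called higher and 9.65% lower. The median log2 fold change of the 10 components was 0.32, beside −0.03 over all genes. All fold changes are of log2(value + 1).

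PKP1, a plakophilin of stratified epithelia that clusters desmosomal cadherins, was at 41.3 and 38.9 in normoxia and 67.4 and 78.2 in hypoxia, a log2 fold change of 0.84 ± 0.11 (SE; adjusted p = 0.00325). DSG3, the desmoglein of basal squamous cells and the target of antibodies in pemphigus vulgaris, was at 98.6 and 108 in normoxia and 145 and 159 in hypoxia (0.55 ± 0.13, adjusted p = 0.0261). DSC2, the most widely expressed desmocollin, was at 81.6 and 85.1 and then 117 and 125 (0.53 ± 0.13, adjusted p = 0.0269). In each, both hypoxia libraries lay above both normoxia libraries, which is a description of genes picked by the call.

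The remaining components were not called. DSP went from 1577 and 1648 to 2022 and 2133, which passed on p (0.37 ± 0.10, adjusted p = 0.0431) and stood at 1.29-fold, just under the fold required. JUP, which links the cadherin tails to DSP, was at 288 and 250 against 341 and 374 (0.41 ± 0.15, adjusted p = 0.0879), and it was called without the libraries that stand apart (0.51, adjusted p = 7.92e-08). DSG2 (0.27), PKP2 (0.24), DSC3 (0.15), PERP (0.14) and PKP3 (0.02) had smaller log2 fold changes, with adjusted p between 0.115 and 0.933. Without those libraries 4 components were higher and none lower, beside 12.7% and 13.1% of all genes. PKP1 alone was called when any 1 of the 4 compared libraries was left out, which leaves 1 library in a group. Calls over all genes also fell in those fits.

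The libraries labelled METTL4-si had lower levels of 4 of the 10 components than Scr-si libraries in hypoxia: all 3 plakophilins and PERP. None was higher. Among all genes, 15.3% were called lower and 12.5% higher, and the median log2 fold change was −0.27 for the components and 0.02 for all genes. This comparison uses the same Scr-si hypoxia libraries as the last, so the 2 sets of changes are not independent.

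PKP3, found in nearly all epithelial desmosomes, was at 91.5 and 96.0 in Scr-si and 62.6 and 48.2 in METTL4-si (−0.76 ± 0.12, adjusted p = 0.00483). The lower values also lie under the normoxia libraries (96.4 and 88.9). PKP2, a plakophilin of simple epithelia and heart, was at 179.5 and 171 against 99.8 and 122 (−0.66 ± 0.099, adjusted p = 0.00366), again below normoxia (149 and 148). PKP1 was at 67.4 and 78.2 against 49.2 and 42.2 (−0.66 ± 0.11, adjusted p = 0.00483), the latter close to the normoxia values of 41.3 and 38.9. PERP went from 653 and 690.2 to 466 and 542 (−0.42 ± 0.094, adjusted p = 0.0158).

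The cadherins were not called, and the METTL4-si replicates differed widely in each. DSG3 was at 117 and 153, DSC2 at 96.0 and 127, DSC3 at 276 and 361 and DSG2 at 539.7 and 675, with log2 fold changes from −0.21 to 0.10 and adjusted p of 0.184 to 0.554. DSP was at 1672 and 1960.3 (−0.20, adjusted p = 0.178) and JUP at 329 and 244 (−0.33, adjusted p = 0.127). Replicate 1, where the luminal markers were raised, was the lower of the pair for the 4 cadherins, DSP, PKP2 and PERP and the higher for JUP, PKP1 and PKP3; the part of those transcripts' source in the values was not tested. Without the libraries that stand apart, 4 were lower and none higher, beside 19.3% and 15.2% of all genes, with JUP called (−0.55) and PERP no longer past the fold (−0.31). Leaving out Scr-si hypoxia replicate 2 left 1 call.

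**Figure D2:**
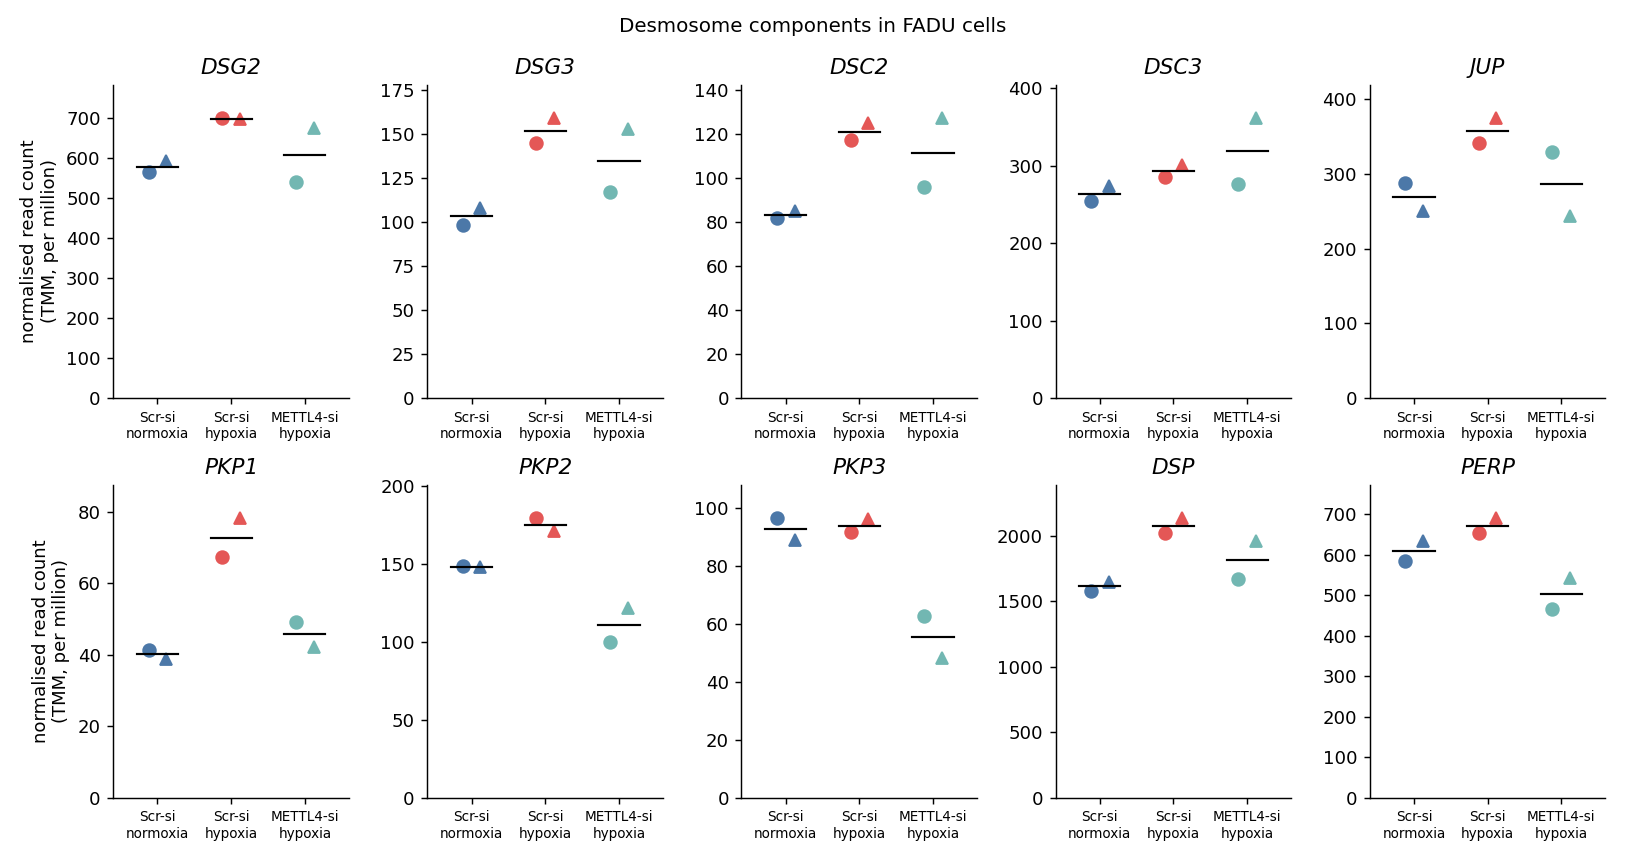
Normalised read count of the 10 components in the 6 FADU libraries of the hypoxia and knockdown experiment (vertical axis from 0; circles replicate 1, triangles replicate 2, bars the mean of 2). PKP1 is at 67.4 and 78.2 in Scr-si hypoxia and between 38.9 and 49.2 elsewhere, while PKP3 is lower only in METTL4-si (62.6 and 48.2).

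In BFTC909 cells 2 of the 5 listed components were higher in hypoxia, PKP1 and DSG2, and none was called lower, while 17.9% of the 14869 genes tested were called higher and 18.3% lower. PKP1 had the largest log2 fold change among the called components in the 7 comparisons within a table, from 32.3 and 35.0 to 111 and 119 (3.34-fold, log2 fold change 1.74 ± 0.075, adjusted p = 1.25e-05). DSG2 went from 141 and 136 to 182 and 179 (0.38 ± 0.087, adjusted p = 0.0102), a 1.3-fold change at the limit of the call, which left PKP1 as the single call when any 1 of the 4 libraries was left out. Both hypoxia libraries lay above both normoxia libraries in these 2 called genes, which is a description of genes picked by the call. PERP was at 88.0 and 88.8 against 97.4 and 95.5 (0.12 ± 0.060, adjusted p = 0.131).

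DSP, the link to keratin, was at 36.9 and 36.4 in normoxia and 8.19 and 8.46 in hypoxia, 824 and 867 against 170 and 177 reads. The replicates lay close together and the groups far apart. The log2 fold change of −2.01 ± 0.73 did not pass (adjusted p = 0.0566) in the fit that shares 1 spread among 3 groups, where METTL4-si replicate 2 was far from its replicate. Without that library, or in a fit to normoxia and hypoxia alone, DSP was called lower (−2.01, adjusted p = 6.15e-11 and 4.56e-11). PKP3 was called higher without it as well, from 4.74 and 4.40 to 8.87 and 9.55 (0.87, adjusted p = 9.26e-06 without the library and 0.0705 with it), which gave 3 higher and 1 lower of 5, beside 20.5% and 19.9% of all genes. KRT18, a keratin of simple epithelia that desmosomes anchor, went from 76.3 and 73.4 to 17.2 and 16.7, and it was not called in the shared fit.

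In BFTC909 libraries labelled METTL4-si, 1 of 5 components was lower than in Scr-si hypoxia and none higher, beside 11.7% and 13.2% of all genes. That component was PKP1, at 111 and 119 against 62.4 and 64.1 (−0.85 ± 0.075, adjusted p = 0.000297), between its hypoxia and its normoxia levels. DSG2 went further up, to 251 and 211 (0.35 ± 0.087, adjusted p = 0.0206, 1.27-fold and so not called). PERP was at 113 in both libraries (0.22 ± 0.060, adjusted p = 0.0269, 1.17-fold).

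The METTL4-si replicates differed most in DSP and PKP3. DSP was at 13.4 in replicate 1 and 97.5 in replicate 2 (2.01 ± 0.73, adjusted p = 0.0721), and PKP3 at 5.91 and 15.2 (0.05 ± 0.34, adjusted p = 0.921). In the same 2 libraries KRT8 was at 5.02 and 715, KRT18 at 24.2 and 379, and PPL, the desmosome-linked plakin periplakin, at 1.13 and 13.9. The part of those other epithelial transcripts in the DSP value was not tested. With replicate 2 left out, 2 of 5 were higher, DSP (0.62, adjusted p = 8.89e-05) and DSG2 (0.47, adjusted p = 1.8e-06), and 2 were lower, PKP1 (−0.87, adjusted p = 1.99e-07) and PKP3 (−0.56, adjusted p = 0.0036), beside 14.3% of all genes called higher and 12.7% lower.

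**Figure D3:**
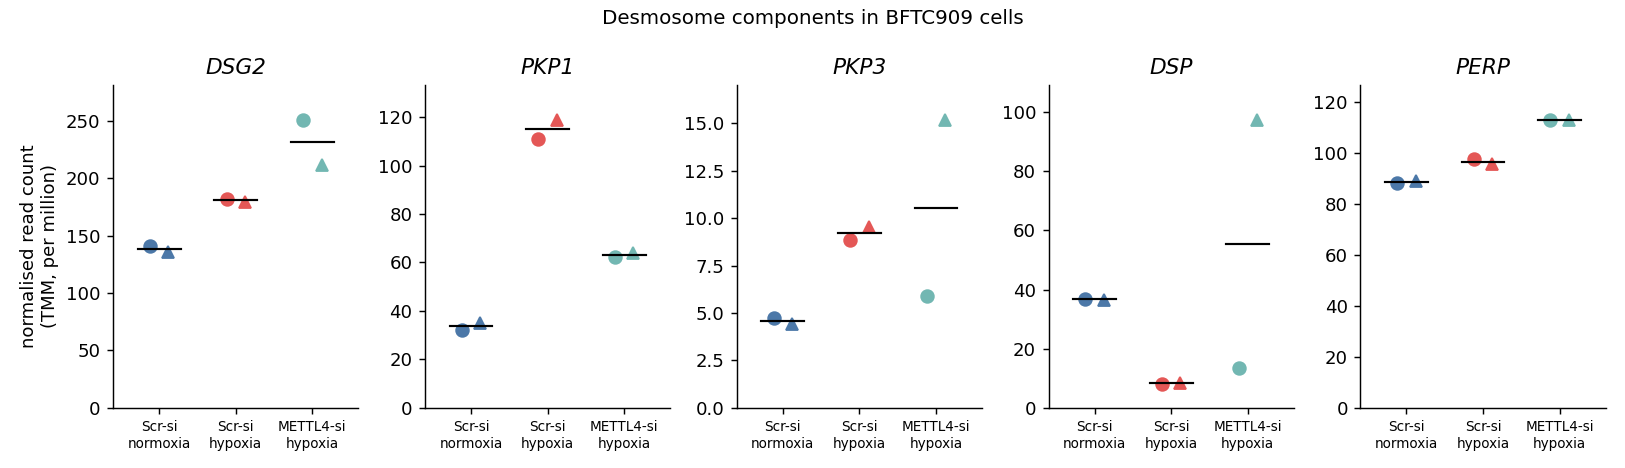
Normalised read count of the 5 components listed for BFTC909 in its 6 libraries (vertical axis from 0; circles replicate 1, triangles replicate 2, bars the mean of 2). PKP1 is highest in Scr-si hypoxia (111 and 119), DSP is lowest there (8.19 and 8.46), and DSP and PKP3 in METTL4-si rest on the triangle at 97.5 and 15.2.

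The lines were compared through the difference of their changes, over 13595 genes tested in both. For hypoxia, 1 of 5 components differed (PKP1, FADU minus BFTC909), lower in FADU, beside 11% of genes called lower and 12.8% higher in FADU. PKP1 rose by 0.84 in FADU and 1.74 in BFTC909, a difference of −0.90 ± 0.14 (adjusted p = 0.00144), and of −0.85 without the libraries that stand apart (adjusted p = 1.66e-05). DSP had opposite signs (0.37 and −2.01), and its difference of 2.38 ± 0.89 did not pass (adjusted p = 0.0764) until the 3 libraries that stand apart were removed (2.35, adjusted p = 1.14e-11).

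For the METTL4-si effect, 2 of 5 components differed, both lower in FADU, beside 14.4% of genes called lower and 9.12% higher. PERP changed by −0.42 in FADU and 0.22 in BFTC909, a difference of −0.64 ± 0.11 (adjusted p = 0.00232), and of −0.53 without the libraries that stand apart (adjusted p = 1.83e-05). DSG2 changed by −0.21 and 0.35, a difference of −0.56 ± 0.15 (adjusted p = 0.0217), and of −0.52 without them (adjusted p = 9.58e-06). For PKP1, lower in both lines, the difference was 0.19 ± 0.14 (adjusted p = 0.344), which does not show that the effects were equal.

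In METTL4-OE cells, FADU cells that overexpress METTL4 in normoxia, 4 of the 10 components were lower than in the control vector, 3 cadherins and PKP1, and none was called higher. Among 15644 genes tested, 10.5% were called lower and 8.0% higher. The median log2 fold change of the components was −0.25, beside 0.01 over all genes. Replicates were tight here, so small changes also passed on p: without a minimum fold, 6 were lower and 3 higher. Over all 15644 genes, 2830 were then lower and 3271 higher.

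PKP1 had the largest change, from 38.4 and 39.1 in the control vector to 18.4 and 18.8, or 805 and 841 reads against 370 and 415 (0.493-fold, −1.02 ± 0.066, adjusted p = 3.85e-08). DSC3, the desmocollin of basal squamous layers, was at 287 and 275 against 169.6 and 162 (−0.76 ± 0.049, adjusted p = 3.8e-08). DSC2 was at 91.4 and 78.1 against 55.5 and 52.6 (−0.64 ± 0.067, adjusted p = 5.62e-06), and DSG3 at 105 and 100.1 against 67.9 and 71.3 (−0.55 ± 0.049, adjusted p = 1.1e-06). In each of the 4 the groups were apart by more than the spread within either, which is a description of genes picked by the call.

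The other components moved less than 1.3-fold. DSP was at 1563 and 1532 against 1280.2 and 1308 (−0.26 ± 0.047, adjusted p = 0.000635) and DSG2 at 576 and 555 against 481 and 482 (−0.23 ± 0.045, adjusted p = 0.000955). PKP2 went the other way, from 149 and 139 to 187 and 186 (0.37 ± 0.046, adjusted p = 2.72e-05), just under the fold required. PKP3 was at 74.1 and 67.8 against 83.3 and 79.7, PERP at 531 and 454 against 576 and 549.7, and JUP at 245 and 246 against 235 and 219 (−0.11, adjusted p = 0.0897).

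Libraries labelled RP11-390F4.3-OE gave another set. JUP and PKP3 were higher than in the control vector and DSC3 lower, so that 2 of 10 were called higher and 1 lower, beside 16.5% and 12.5% of all genes. The median log2 fold change of the components was 0.20, against 0.01 over all genes.

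JUP was at 245 and 246 in the control vector and 362 and 389 in RP11-390F4.3-OE (0.61 ± 0.050, adjusted p = 2.96e-07). PKP3 was at 74.1 and 67.8 against 97.4 and 105 (0.50 ± 0.057, adjusted p = 7.42e-06). DSC3 was at 287 and 275 against 206 and 191 (−0.50 ± 0.049, adjusted p = 1.7e-06). PKP1, at 43.7 and 47.9, stayed under the fold required (0.23 ± 0.066, adjusted p = 0.00881), as did DSG3 at 117 and 115 (0.18) and DSC2 at 96.3 and 92.2 (0.16). DSP was at 1475 and 1494 (−0.06 ± 0.047, adjusted p = 0.301).

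Compared with each other, RP11-390F4.3-OE libraries had higher levels of 4 components than METTL4-OE libraries and lower levels of none, where 18.4% of genes were called higher and 13.3% lower. These were PKP1 (1.25 ± 0.066, adjusted p = 4.04e-09), DSC2 (0.79 ± 0.067, adjusted p = 3.94e-07), DSG3 (0.73 ± 0.049, adjusted p = 4.26e-08) and JUP (0.72 ± 0.050, adjusted p = 5.15e-08). DSC3, lower in both than in the control vector, differed by 0.26 ± 0.049 (adjusted p = 0.000541), under the fold required. The 3 comparisons share libraries and are not independent.

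**Figure D4:**
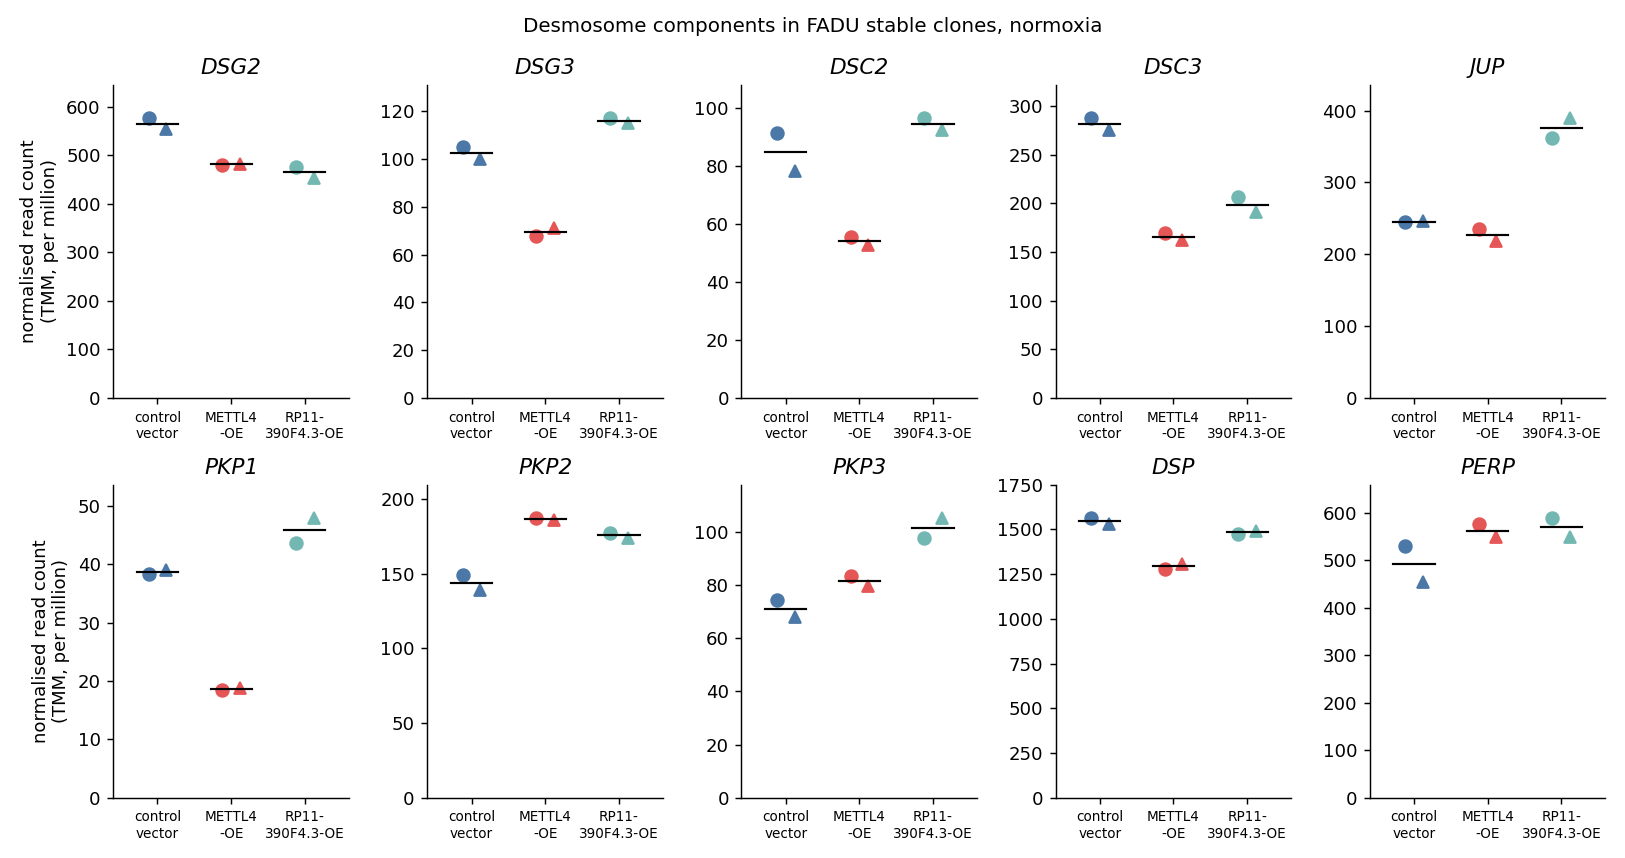
Normalised read count of the 10 components in the 6 FADU libraries of the overexpression experiment (vertical axis from 0; circles replicate 1, triangles replicate 2, bars the mean of 2). DSG3, DSC2, DSC3 and PKP1 are lowest in METTL4-OE (PKP1 at 18.4 and 18.8), while JUP is highest in RP11-390F4.3-OE (362 and 389).

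In the METTL4-DPPW-mut clones, 3 components were lower and 2 higher than in the CRISPR control by at least 1.3-fold in both clones, beside 11.8% and 8.94% of all 15719 genes. With 1 control library there is no test, and the ratios describe these 3 libraries. Of the deposited signal, 42.8% in the control and 43.0% and 40.9% in clones 1 and 2 lay outside genes. The other tables list no such part, so these levels are not on their scale. The cadherins DSG3 and DSG2 and the linker JUP were lower. DSG3 was at 112 in the control and 70.3 and 65.6 in clones 1 and 2, with log2 ratios of −0.66 and −0.76. JUP was at 294 against 183 and 218 (−0.68 and −0.43), and DSG2 at 399 against 278 and 305 (−0.52 and −0.39).

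PKP2 and PKP3 were higher in the clones. PKP2 went from 79.6 in the control to 138 and 143 (0.79 and 0.84), and PKP3 was at 46.9 against 66.5 and 71.5 (0.50 and 0.60). Of the rest, DSC2 was at 62.4 against 51.6 and 33.7, DSC3 at 103 against 134 and 83.5, DSP at 1248 against 795 and 1047, and PKP1 at 15.4 against 22.0 and 16.4. PERP was at 300.0 against 285 and 273, close to each other in the clones. In DSC2, DSC3, DSP and PKP1 the clones were further apart. The mutation and the separate history of each clone cannot be told apart.

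**Figure D5:**
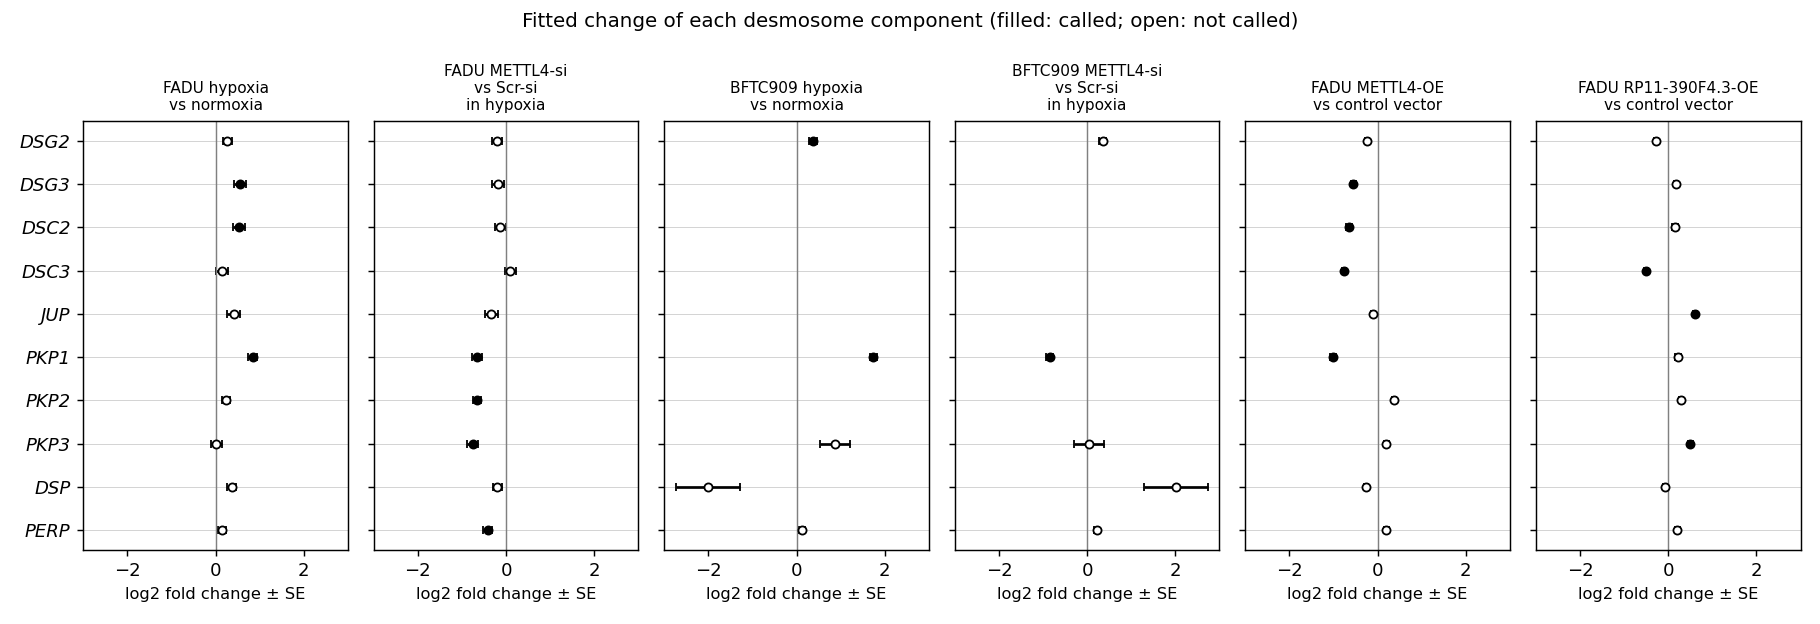
Fitted log2 fold change ± SE of each component in 6 comparisons (horizontal axis; 2 libraries per group; filled symbols called, open symbols not called; no symbol where a gene was not analysed). PKP1 lies right of 0 in hypoxia in both lines (0.84 and 1.74) and left of 0 in METTL4-si in both (−0.66 and −0.85) and in METTL4-OE (−1.02); the METTL4-si and hypoxia panels share libraries.

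Among the 5 components listed for both lines, PKP1 was the only one called in 5 of the 6 comparisons with a control shown in the plot of fitted changes. The other 5 (DSG3, DSC2, DSC3, JUP and PKP2) could be called only in the FADU comparisons. It was higher in hypoxia in both lines, lower in METTL4-si-labelled libraries of each line, and lower in METTL4-OE. The METTL4-si and METTL4-OE contrasts thus gave the same sign for PKP1, in cells kept at different oxygen levels, with CA9 lower in the first (log2 fold change −3.53 in FADU and −3.07 in BFTC909) and higher in the second (2.49). In the METTL4-DPPW-mut clones the log2 ratios of PKP1 were 0.49 and 0.09. The hypoxia and METTL4-si comparisons of a line share libraries. The share of all genes called as often as PKP1 was not counted.

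Genes that work beside these components were counted in the same fits. The counts here and in the paragraphs that follow stand beside these shares of all genes, called higher and then lower. FADU hypoxia had 9.73% and 9.65%, and FADU METTL4-si 12.5% and 15.3%. BFTC909 hypoxia had 17.9% and 18.3%, and BFTC909 METTL4-si 13.2% and 11.7%. METTL4-OE had 8.0% and 10.5%, and RP11-390F4.3-OE 16.5% and 12.5%. Of 10 other desmosome-associated genes, 6 were tested in FADU. In hypoxia none was called higher and 2 were called lower, beside 9.65% of all genes, the plakin PPL (−0.57 ± 0.067, adjusted p = 0.00254) and the periplakin-binding KAZN (−0.48 ± 0.083, adjusted p = 0.0095). In FADU METTL4-si libraries 3 were higher, with EVPL (0.45) and KAZN (0.42) at the top. In METTL4-OE 1 was lower (EVPL, −0.41), and in RP11-390F4.3-OE 2 were lower (PPL, −0.69, and PNN, −0.57). In BFTC909 2 of 5 were lower in hypoxia (TCHP, −0.62, and PKP4, −0.46) and 1 in METTL4-si (KAZN, −0.64). Without the libraries that stand apart, the counts in FADU were 2 lower in hypoxia and 2 higher in METTL4-si, where EVPL fell short of the fold (0.34), and in BFTC909 1 higher and 2 lower in hypoxia and 2 lower in METTL4-si. Of all genes, FADU then had 12.7% higher and 13.1% lower in hypoxia and 15.2% and 19.3% in METTL4-si. BFTC909 had 20.5% and 19.9% in hypoxia and 14.3% and 12.7% in METTL4-si.

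Of 9 keratins tested in FADU, 1 was higher and 4 lower in hypoxia, led by the simple-epithelial KRT7 (−1.57 ± 0.13, adjusted p = 0.000844) and KRT18 (−1.44 ± 0.29, adjusted p = 0.0161). In METTL4-si 1 was higher and 4 lower, led by basal KRT14 (−1.15) and KRT19 (−0.93). In METTL4-OE 1 was higher and 6 lower, led by KRT16 (−0.68) and KRT8 (−0.60), and in RP11-390F4.3-OE 2 were higher (KRT6A, 1.48, and KRT17, 0.83) and 4 lower. In BFTC909, KRT8 and KRT18 were tested, and limma called neither in hypoxia (0 had an unadjusted p under 0.05, and edgeR called 0) or in METTL4-si (1 had an unadjusted p under 0.05, and edgeR called 2). Without the libraries that stand apart, 2 keratins were higher and 5 lower in FADU hypoxia and 1 higher and 4 lower in METTL4-si, with KRT19 at −1.36, while in BFTC909 both were called lower in hypoxia and higher in METTL4-si. KRT8 and KRT18 are among the transcripts that were raised in the libraries that stand apart.

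The adherens junction, the other cadherin-based junction, was represented by 8 genes in FADU. In hypoxia 3 were higher and none lower, led by NECTIN1 (0.75) and the P-cadherin gene CDH3 (0.74), and in METTL4-si 1 was higher and 4 lower, led by NECTIN1 (−0.76) and CTNNA1 (−0.64). In METTL4-OE 2 were lower, E-cadherin (CDH1, −0.77 ± 0.045, adjusted p = 1.59e-08) and NECTIN2 (−0.46), and none higher. In RP11-390F4.3-OE 1 was higher (NECTIN1, 0.54). In BFTC909, limma called none of 6 in hypoxia (4 had an unadjusted p under 0.05, and edgeR called 0), and 2 were higher in METTL4-si (NECTIN1, 1.10, and AFDN, 0.80). Without the libraries that stand apart, FADU gave 3 higher in hypoxia and 3 lower in METTL4-si, and BFTC909 gave 1 higher and 1 lower in hypoxia and 2 higher in METTL4-si, with NECTIN1 at 0.52.

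Of 9 hemidesmosome genes, whose products anchor cells to the basement membrane, 6 were higher and none lower in METTL4-OE, among them LAMB3 (0.76). Of all genes, 8.0% were higher and 10.5% lower there. In RP11-390F4.3-OE 5 hemidesmosome genes were higher, among them LAMB3 (0.74), beside 16.5% of all genes. In FADU hypoxia 3 were higher and 1 lower, and in METTL4-si 1 was higher and 3 lower. In BFTC909 hypoxia 3 of 8 were higher and 2 lower (COL17A1, −1.62, and ITGA6, −1.48), and in METTL4-si 4 were higher. Without the libraries that stand apart, FADU gave 3 higher and 2 lower in hypoxia and 2 higher and 3 lower in METTL4-si, and BFTC909 gave 3 higher and 2 lower in hypoxia and 3 higher and 1 lower in METTL4-si.

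Of 13 transcription factors of epithelial and EMT programmes, 5 of 12 tested were higher and 1 lower in FADU hypoxia, led by OVOL1 (0.98) and GRHL1 (0.83). In METTL4-si 3 were higher and 3 lower, led by SNAI2 (−1.32) and SNAI1 (0.83). In METTL4-OE 4 of 11 were higher and 2 lower, led by SNAI2 (1.22) and ZEB1 (1.13), with ZEB1 at 1.48 and 1.3 in the control vector and 4.42 and 4.03 in METTL4-OE. In RP11-390F4.3-OE 8 of 11 were higher and none lower, led by the epithelial regulators OVOL1 (1.07) and KLF4 (1.02). Both SNAI repressors also had higher values there. SNAI1 was at 2.98 and 3.04 against 1.34 and 1.16 in the control vector, and SNAI2 at 41.4 and 39.1 against 31.0 and 29.5. In BFTC909 3 of 8 were higher and 2 lower in both hypoxia and METTL4-si, with SNAI1 at 1.42 and −1.89 and GRHL1 at −0.92 and 1.51. Without the libraries that stand apart, FADU gave 5 higher and 2 lower in hypoxia and 2 higher and 3 lower in METTL4-si. BFTC909 again gave 3 higher and 2 lower in both, with SNAI1 at 1.42 and −2.01 and GRHL1 at −0.92 and 1.05.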

How the data were processed

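Values were analysed as deposited. By the labels and the study's methods, the authors used Trim Galore for trimming, HISAT2 for alignment (hg19), htseq-count for reads per gene and, for normalisation, edgeR's trimmed mean of M-values (TMM); versions, annotation and strand setting are not given in the sources used here, so reads of a gene and of an antisense partner cannot be told apart. The deposited signal is TMM-normalised CPM, and 4 further tables of the authors' comparisons (fold changes and p-values) were not used. Of the knockdown and overexpression values, 100% were whole multiples of 1 read (tolerance 0.05 reads), which gave the depth.

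Genes at 1 or more in at least 2 libraries were tested on log2(value + 1) with limma 3.58.1 (trend option, R 4.3.3), the 3 groups of a table sharing 1 spread, with Benjamini-Hochberg adjustment over all genes tested; a gene was called at 1.3-fold and adjusted p under 0.05, two-sided. The difference between lines was fitted on the 12 libraries of both knockdown tables. The fits were also run on simulated counts, with the outcome not given here. Those counts had the same spread for every gene and no library that stands apart, so they do not cover the METTL4-si pairs. Positions and exon lengths came from the GENCODE annotation lifted to GRCh37 and symbols from a table of gene identifiers, where 16721 of 17232 to 18887 of 19505 gene identifiers of the knockdown tables were matched. Depths of 17781791 to 25410656 reads and 2 libraries per group limit the precision.

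The 10 members and all gene lists were chosen with earlier results of these data known. All members are named. Of the other lists, counts and genes among the 2 called genes with the largest change are given for the comparisons with a control. KRT8, KRT18, ESR1, ZEB1, PPL, DSG1, SNAI1 and SNAI2 values outside that rule were chosen after their values were seen. The values of 1 gene that this rule names are not reported here. Replicate numbers come from the labels. The labels do not say that a number marks a shared culture or day, and not every pair of groups correlated above 0.1 in its replicate differences, so the numbers were not taken to pair libraries. Alternatives were other pseudocounts, filters, folds and scalings, edgeR 4.0.16 on whole reads, a replicate block, 2 groups alone and leaving out libraries.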

Additional observations from a re-analysis of the deposited data

Results flagged for a closer look

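The test of the difference between the lines picked out 3 values. The PKP1 response to hypoxia differed by −0.90 on the log2 scale (FADU minus BFTC909, 0.84 against 1.74). The METTL4-si effect on DSG2 differed by −0.56 (−0.21 against 0.35) and that on PERP by −0.64 (−0.42 against 0.22). The adjusted p-values of limma for these differences were 0.00144, 0.0217 and 0.00232. No group has 4 or more libraries, so no library was tested as an outlier.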

How the results depend on the processing

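Counts of called components were 3 and 4 for FADU hypoxia and METTL4-si, 2 and 1 for BFTC909 hypoxia and METTL4-si, 4 for METTL4-OE, 3 for RP11-390F4.3-OE, 4 between these, and 1 and 2 for the differences between lines in hypoxia and METTL4-si; 5 passed the fold in both mutant clones. Requiring 2-fold left 0, 0, 1, 0, 1, 0, 1, 0, 0 and 0 in that order. With no minimum fold, BFTC909 METTL4-si gave 3, METTL4-OE 9, RP11-390F4.3-OE 8 and the comparison of these 7. Over all genes, 4802 of 14869 were then called in BFTC909 METTL4-si and 6101 of 15644 in METTL4-OE. RP11-390F4.3-OE gave 8263 of 15644 and the comparison between the OE groups 8474. On an unadjusted p, 4 components were called in BFTC909 hypoxia, 2 in BFTC909 METTL4-si and 2 for the difference in hypoxia. Over all genes these fits called 5748 and 4261 of 14869 and 4215 of 13595. In BFTC909 hypoxia, a pseudocount of 5 gave 1 component and a fit to 2 groups gave 4, beside 3865 and 6011 of all genes. Median-centred libraries left 1 for the difference in METTL4-si, and edgeR on whole reads called 2 in BFTC909 METTL4-si. Over all genes edgeR called 3222 against 3163 in FADU hypoxia and 5524 against 5382 in BFTC909 hypoxia.

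Without the 3 libraries that stand apart, the counts were 4 in both BFTC909 comparisons and 3 and 4 for the differences, and PKP3 in BFTC909 METTL4-si turned from 0.05 to −0.56, as it did without METTL4-si replicate 2 alone, and it was 0.67 without replicate 1. The replicate block, which pairs libraries by number only, gave 4 in BFTC909 hypoxia (DSP lower, adjusted p = 0.0279, and PKP3 higher, adjusted p = 0.0409, were gained) and 2 in BFTC909 METTL4-si, and it changed no other count. Replicate differences of FADU METTL4-si and FADU normoxia correlated across genes (r = 0.648), and replicate 1 of both is a library that stands apart; the other pairs of groups lay between −0.0652 and 0.154.

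Leaving out 1 library at a time, where a lone library is assumed to vary like the other groups, gave 1 to 1 in FADU hypoxia, 1 to 4 in FADU METTL4-si, 1 to 1 in BFTC909 hypoxia, 1 to 4 in BFTC909 METTL4-si, 4 to 5 in METTL4-OE, 3 to 3 in RP11-390F4.3-OE, 4 to 4 between these, 1 to 1 and 1 to 4 for the differences, and 6 to 8 in the clones taken alone. Calls over all genes also fell in FADU and BFTC909 hypoxia, and in METTL4-si of each line where a Scr-si library was left out. They rose where a METTL4-si library was left out. The cause was not tested. Per kilobase of the longest transcript, DSP stood at 166, DSG2 at 101 and JUP at 76.8. PKP2 stood at 33.9, PKP3 at 32.9 and PKP1 at 7.36. By this length DSP came before PERP, PKP2 before PKP3 and DSG3, and PKP1 before DSC2 (6.73). Of the fitted log2 fold changes of single components, 1090 of 1190 alternatives kept their call (15 of all changed sign with neither value called), 52 gained and 46 lost the call, and 2 reversed. The 2 libraries per group limit every p-value, and PKP3 in BFTC909 rests on 105 to 302 reads per library.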
